A study of Danio rerio with 18 samples.

Results

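Ribose methylation was described at the 18S rRNA sites of the central and 3′ domains of zebrafish ribosomes. These are the 18S sites in the authors' list whose number, in human numbering, is above 660. The rule takes 14 of the 98 listed sites, and the rest include 21 other 18S sites and 60 sites of 28S rRNA. Among the listed sites, the choice used position alone and no measured value. RiboMeth-seq was run on 14 libraries of whole-cell zebrafish RNA without any treatment or allele given in the labels: 3 each of unfertilized egg, of embryos with 32 cells, of embryos with 12 somites and of larvae with a protruding mouth, and 2 of the tail (trunk) of adults. The series is about the change from early to late ribosomes during development. Its labels call the replicates biological and do not say how many animals or eggs were pooled, nor do they give an age or a strain.

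The 18S RNA is the RNA of the small ribosomal subunit. Its central domain forms the platform, and its 3′ domain forms the head and, through helix 44, the decoding centre. A methyl group is placed on the ribose by fibrillarin within box C/D small nucleolar ribonucleoproteins, whose guide RNA pairs with the rRNA at the site. Zebrafish carry a maternal rRNA type, made in the oocyte, and a somatic type that replaces it as the embryo grows. In RiboMeth-seq, RNA is broken by alkali. A 2′-O-methyl group protects the bond next to it, so that few fragments end there. The score is 1 minus the read ends at the position over the weighted mean of the read ends at 6 positions on each side, and it runs from 0 to 1. The sheets of the egg, 32-cell and 12-somite stages use the maternal type, called early, and those of the protruding-mouth and adult stages use the somatic type, called late.

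The 14 sites fall into 3 of the central domain, numbered up to 1200, and 11 of the 3′ domain. They are 5 adenosines, 4 uridines, 3 guanosines and 2 cytidines. The sequences below were read from the deposited stage sheets, 5′ to 3′, with 10 positions on each side and the listed nucleotide in capitals. The 21-base window was the same in early and late rRNA at 11 of the 14 sites. The first set shows the central domain sites, at early and late positions 714 and 678 for 18S-Am668, 853 and 815 for 18S-Um799, and 1095 and 1052 for 18S-Am1031.
18S-Am668: ugcugcaguuAaaaagcucgu
18S-Um799: gcccggagcgUuuacuuugaa
18S-Am1031: uuaaucaagaAcgaaagucgg

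The second set shows sites of the 3′ domain on which the values below turn. 18S-Cm1272 is at early position 1339 and late position 1294, 18S-Gm1490 at 1555 and 1509, 18S-Am1678 at 1743 and 1697, and 18S-Cm1703 at 1768 and 1722. 18S-Cm1703 lies in the strand of helix 44 that lines the decoding centre and whose sequence is nearly the same in all organisms. The stretch of 27 bases holds 18S-Gm1322, 18S-Um1326 and 18S-Gm1328, at early positions 1389, 1393 and 1395 and late positions 1344, 1348 and 1350, which lie close enough to be among each other's flanking positions.
18S-Cm1272: cucacccggcCcggacacgga
18S-Gm1490: agcaauaacaGgucugugaug
18S-Am1678: ugcguugauuAagucccugcc
18S-Cm1703: guacacaccgCccgucgcuac
18S-Gm1322, Um1326 and Gm1328: gauucuguggGuggUgGugcauggccg

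The third set shows the sites with a difference between early and late rRNA among the flanking positions that enter the score. 18S-Am1637 is at 1702 in early and 1656 in late rRNA, and the types differ at 5, 6 and 7 positions before it. 18S-Um1442 is at 1507 and 1461, and the types differ at 6 and 7 positions before it, where the early RNA has an additional base. At 18S-Am1383, at 1450 and 1405, the nearest difference is 9 positions after the site, outside the scored window.
18S-Am1637, early: cccgagaacgAggaauuccca
18S-Am1637, late: cccaucaacgAggaauuccca
18S-Um1442, early: gucugcaacuUcuuagaggga
18S-Um1442, late: cgucccaacuUcuuagaggga

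The libraries held 1494730 to 15358081 read ends over all rRNAs. Adult library A was the shallowest by a wide margin, and 12-somite library 3 had 4408072. Behind single scores of the 14 sites, the plain mean over the flanking positions ran from 135 read ends, at 18S-Cm1703 in 12-somite library 3, to 9149 at 18S-Am1383. All 98 sites passed the minimum of 10 in every library. Libraries of different stages share sequencing barcodes: egg library 1 shares one with 32-cell library 2 and egg library 2 with 32-cell library 3, 12-somite and protruding-mouth libraries of the same number do, adult library A shares one with both libraries 2, and adult library B with both libraries 3.

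Most of these sites scored high throughout development. No library fell under 0.75 at 12 of the 14 sites (85.7%), against 76 of all 98 listed sites (77.6%), 15 of the 21 other 18S sites (71.4%) and 48 of the 60 sites of 28S rRNA (80.0%). The exceptions were 18S-Cm1272 and 18S-Am1678. Over sites and libraries the median score was 0.931, against 0.940 over all listed sites. The median over the 14 sites of the stage mean was 0.936 in egg, 0.915 in 32-cell embryos, 0.937 in 12-somite embryos, 0.929 in protruding-mouth larvae and 0.930 in adult tail, so that the level of the set as a whole moved little. Stage means were at least 0.1 apart at 4 of the 14 sites (28.6%) and at 30 of all 98 (30.6%). These were 18S-Cm1272, 18S-Gm1490, 18S-Am1637 and 18S-Am1678. They are 4 of the 11 sites of the 3′ domain (36.4%), against 0 of only 3 sites of the central domain.

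**Figure D1:**
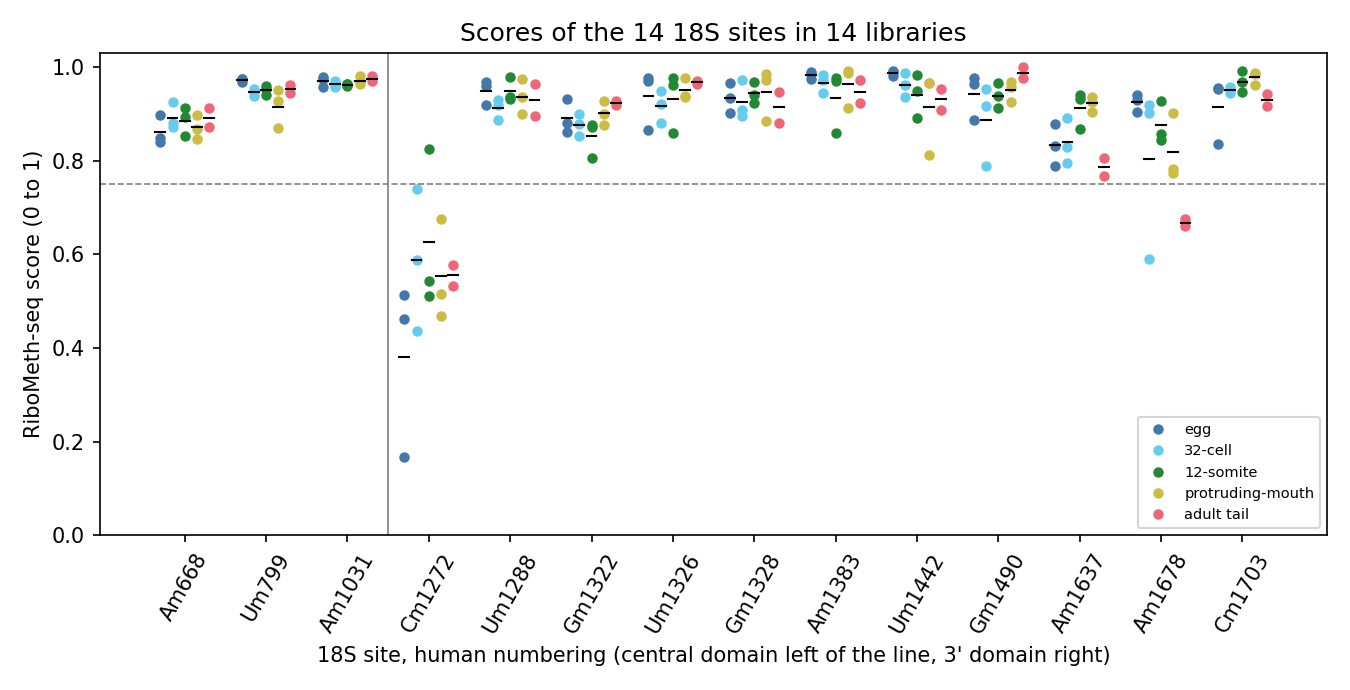
RiboMeth-seq score (vertical axis, 0 to 1) of each of the 14 sites (horizontal axis, human numbering) in each library, coloured by stage; black bars are stage means and the dashed line is 0.75. Points of 18S-Cm1272 spread from 0.168 to 0.824, and both adult points of 18S-Am1678 lie under the line, while most other sites stay above 0.8.

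In the central domain, 18S-Am1031 and 18S-Am668 had the 2 smallest ranges of the 14 sites. At 18S-Am1031 the scores were 0.978, 0.975 and 0.957 in egg, 0.961, 0.958 and 0.970 in 32-cell embryos, 0.964, 0.959 and 0.964 in 12-somite embryos, 0.981, 0.968 and 0.964 in protruding-mouth larvae and 0.971 and 0.980 in adult tail. The range was 0.0242, and each stage overlapped with the next. At 18S-Am668 the scores were 0.897, 0.848 and 0.841 in egg, 0.880, 0.871 and 0.925 in 32-cell embryos, 0.893, 0.912 and 0.852 in 12-somite embryos, 0.846, 0.899 and 0.868 in protruding-mouth larvae and 0.912 and 0.872 in adult tail. All 5 stages overlapped, at a level below that of 18S-Am1031 in every library. 18S-Um799 ran from 0.869 in protruding-mouth library 2 to 0.974 in egg library 2, with a median of 0.951. Its egg libraries, at 0.968 to 0.974, lay above all others, of which the highest was 0.961 in adult library A, and its F test over all 5 stages did not pass (limma adjusted p 0.394).

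In the 3′ domain, 18S-Um1288 had the third of the 3 smallest ranges, 0.0916. It scored 0.959, 0.919 and 0.968 in egg, 0.887, 0.919 and 0.930 in 32-cell embryos, 0.936, 0.931 and 0.979 in 12-somite embryos, 0.974, 0.8997 and 0.936 in protruding-mouth larvae and 0.894 and 0.965 in adult tail. The 32-cell libraries lay just below the 12-somite libraries, and every other pair of stages overlapped. The neighbours 18S-Gm1322, 18S-Um1326 and 18S-Gm1328 ran from 0.806 to 0.931, from 0.860 to 0.977 and from 0.881 to 0.985. Since each of them lowers the flanking mean of the others, their scores were also computed with listed positions left out of the flanks. The medians were then 0.899 in place of 0.879 at 18S-Gm1322, 0.963 in place of 0.956 at 18S-Um1326 and 0.949 in place of 0.938 at 18S-Gm1328, and 18S-Gm1322 stayed the lowest of the group.

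18S-Am1383 ran from 0.858 to 0.991 with a median of 0.973, 18S-Um1442 from 0.812 to 0.992 with a median of 0.964, and 18S-Cm1703, the decoding-centre site, from 0.835 to 0.991 with a median of 0.954. At 18S-Cm1703 the lowest library was egg library 3. At 18S-Am1383 the 3 lowest were 12-somite library 2 (0.858), protruding-mouth library 2 (0.913) and adult library A (0.922), and at 18S-Um1442 the same libraries were lowest, at 0.891, 0.812 and 0.909. These 3 libraries share a barcode. They were not low at every site: at 18S-Um1326 they scored 0.976, 0.976 and 0.971, above the median of 0.956. The part of the barcode in the low values was not tested. 18S-Gm1490 scored 0.977, 0.886 and 0.965 in egg, 0.918, 0.954 and 0.789 in 32-cell embryos, 0.939, 0.967 and 0.912 in 12-somite embryos, 0.969, 0.958 and 0.925 in protruding-mouth larvae and 1 and 0.976 in adult tail. Its stage means ran from 0.887 ± 0.0868 (SD, n = 3) in 32-cell embryos to 0.988 ± 0.0168 (n = 2) in adult tail. The low mean rests on 32-cell library 3, and the adult value 1 is from library A, with a flanking mean of 187 read ends.

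18S-Cm1272 was the one site with a mean score under 0.75 in every stage, and whether it was partly methylated was not tested. It scored 0.462, 0.514 and 0.168 in egg, 0.437, 0.587 and 0.739 in 32-cell embryos, 0.544, 0.511 and 0.824 in 12-somite embryos, 0.469, 0.515 and 0.676 in protruding-mouth larvae and 0.533 and 0.577 in adult tail. Both adult libraries lay above the 3 egg libraries and within the ranges of the other stages, and 1 of the 14 libraries, 12-somite library 3, reached 0.75. Egg had the lowest mean, 0.381 ± 0.187 (SD, n = 3), and 12-somite embryos the highest, 0.626 ± 0.172 (n = 3). The lowest and the highest library score of the site lie in these stages and pull both means apart. In egg library 3, 807 read ends were counted at the site against a weighted flanking mean of 970. In 12-somite library 3, 25 were counted against 142. For this library the exact 95% Poisson interval of the count, with the flanks held fixed, gives a score between 0.741 and 0.886. Such intervals cover counting error only. The difference between 32-cell embryos and egg was 0.207 (SE 0.113) and that between adult tail and egg 0.174 (SE 0.126); neither passed, with limma adjusted p-values of 0.603 and 0.633. Without egg library 3 the differences were 0.1001 and 0.0675, and without 32-cell library 3 the first was 0.131. With 5′ ends only, which the adult columns used here do not give, the first was -0.0109. The SD among the egg libraries alone was 0.187.

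**Figure D2:**
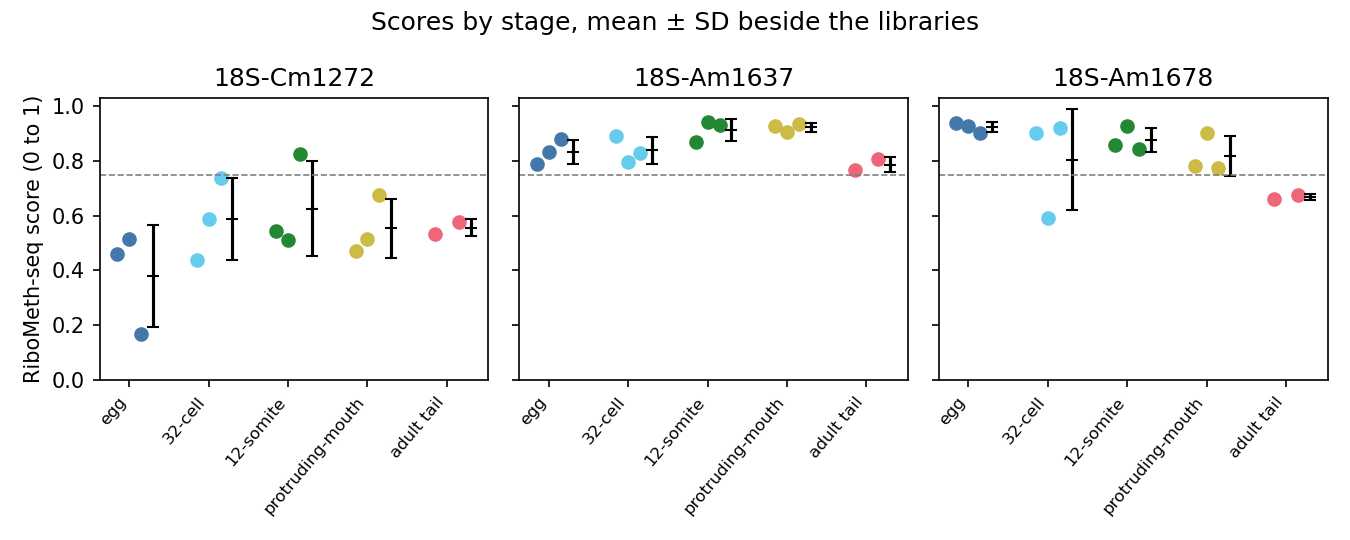
RiboMeth-seq score (vertical axis, 0 to 1) by stage for 18S-Cm1272, 18S-Am1637 and 18S-Am1678; points are libraries, black bars beside them are the stage mean ± SD (n = 3, adult tail n = 2) and the dashed line is 0.75. At 18S-Am1637 the adult libraries, at 0.768 and 0.806, lie under all 3 protruding-mouth libraries, and at 18S-Am1678 the adult libraries lie at 0.661 and 0.675.

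Stages were compared with limma, fitted on all 98 sites and all 14 libraries with Benjamini-Hochberg adjustment over the 98 sites and a threshold of 0.05. Between adult tail and protruding-mouth larvae, both scored on the late rRNA, 1 of the 14 sites passed, where 6 of all 98 did (6.12%). Between adult tail and egg 0 of the 14 passed (3 of 98, 3.06%), with 1 at an unadjusted p under 0.05. Between 32-cell embryos and egg, between 12-somite and 32-cell embryos and between protruding-mouth larvae and 12-somite embryos 0 of the 14 passed, and the background was 0% in each; unadjusted p-values under 0.05 were found at 0, 1 and 0 of the 14 sites. The F test over all 5 stages called 0 of the 14 (3 of 98, 3.06%), with 1 at an unadjusted p under 0.05. The median absolute difference between adult tail and protruding-mouth larvae was 0.0215 over the 14 sites and 0.0279 over all 98. Stage and rRNA type cannot be told apart between adult tail and egg, which also share no barcode, nor between protruding-mouth larvae and 12-somite embryos. The adult libraries are of tail and the others of eggs, embryos or larvae. Stage and tissue therefore cannot be told apart in any comparison with adult tail.

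The site that passed was 18S-Am1637. It scored 0.788, 0.832 and 0.879 in egg, 0.892, 0.796 and 0.829 in 32-cell embryos, 0.868, 0.941 and 0.931 in 12-somite embryos, 0.926, 0.904 and 0.936 in protruding-mouth larvae and 0.768 and 0.806 in adult tail. The 12-somite and protruding-mouth libraries were high, and the adult libraries lay under all of them and overlapped with those of egg and 32-cell embryos. From protruding-mouth larvae, at 0.922 ± 0.0164 (SD, n = 3), to adult tail, at 0.787 ± 0.0272 (n = 2), the score fell by 0.136 (SE 0.0338, limma adjusted p 0.0370). The exact 95% Poisson intervals were 0.706 to 0.819 and 0.774 to 0.834 in adult libraries A and B, and the lowest bound in the 3 protruding-mouth libraries was 0.886. These intervals cover counting error only and not the spread between libraries. The rise of 0.0742 (SE 0.0302) from 32-cell to 12-somite embryos did not pass (limma adjusted p 0.761). The sheets of protruding-mouth larvae and adult tail give the same sequence in this window. Whether either stage held early rRNA, which differs before the site, was not tested.

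The call at 18S-Am1637 was close to the threshold. The limma adjusted p was 0.0617 without egg library 2, 0.0600 without 32-cell library 3, 0.108, 0.0675 and 0.0997 without protruding-mouth libraries 1, 2 and 3, 0.412 without adult library A and 0.0799 without adult library B. It was 0.132 on the logit scale, 0.05004 with 2 flanking positions on each side, just above the threshold, and 0.0562 with centred libraries. With trend and robust moderation it was 0.188, with the 2 stages alone 0.121 and with a quasi-binomial model (not limma) 0.667. With barcode as a block the fall was 0.146, with a limma adjusted p of 0.0239 over all libraries and 0.0742 with the 3 stages that share these barcodes fitted alone. The fall kept its direction in each of these alternatives.

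**Figure D3:**
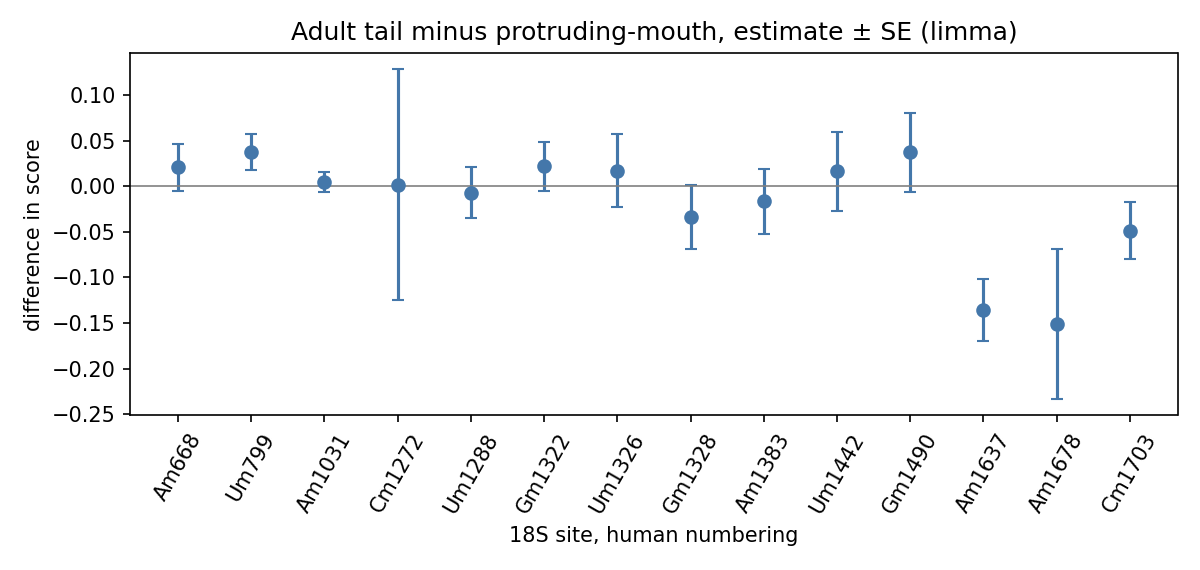
Difference in score between adult tail and protruding-mouth larvae (vertical axis) at the 14 sites (horizontal axis, human numbering); points are limma estimates and bars are ± 1 SE. 18S-Am1637 lies at -0.136 and 18S-Am1678 at -0.151 with a wider error of 0.0822, and the estimate at 18S-Cm1272 is 0.00166.

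18S-Am1678 had the largest difference between stage means, 0.256. It scored 0.940, 0.929 and 0.904 in egg, 0.901, 0.591 and 0.920 in 32-cell embryos, 0.857, 0.928 and 0.845 in 12-somite embryos, 0.782, 0.903 and 0.773 in protruding-mouth larvae and 0.661 and 0.675 in adult tail. Both adult libraries lay under every other library except 32-cell library 2. In adult library A, 50 read ends were counted at the site against a weighted flanking mean of 148. The exact 95% Poisson intervals, which cover counting error only, were 0.553 to 0.748 in adult library A and 0.627 to 0.718 in B. The stage means were 0.924 ± 0.0186 (SD, n = 3) in egg, 0.804 ± 0.185 (n = 3) in 32-cell embryos, 0.877 ± 0.0445 (n = 3) in 12-somite embryos, 0.819 ± 0.0725 (n = 3) in protruding-mouth larvae and 0.668 ± 0.00972 (n = 2) in adult tail. Adult tail was at -0.256 (SE 0.0822) against egg and at -0.151 (SE 0.0822) against protruding-mouth larvae, and neither passed, with limma adjusted p-values of 0.127 and 0.464.

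The outcome at 18S-Am1678 turned on 32-cell library 2, which is in neither comparison but widens the common estimate of the spread at this site. Without it the limma adjusted p was 0.00235 against egg and 0.0413 against protruding-mouth larvae, and 0.0193 in the F test over all 5 stages. The authors' overview holds a barcode-corrected 32-cell mean for this site, 0.940. It is obtained when the score of that library, 0.591, is replaced by its score of 1 from 5′ read ends. Egg library 1, which has the same barcode, scored 0.940 at this site without correction. Whether the barcode lowered the score of 32-cell library 2 was not tested. With barcode-corrected scores the limma adjusted p was 0.00185, 0.0485 and 0.00691 in the same order, and with adult tail and egg fitted alone it was 0.00254. Against protruding-mouth larvae, however, the limma adjusted p was 0.228 with those 2 stages alone, 0.270 with barcode as a block and 0.115 with this block in 3 stages alone, fits that do not pass although the first and last leave out 32-cell library 2. Apart from the barcode block, where the difference against protruding-mouth larvae was -0.165, these fits left the size of the differences as it was. Of all alternatives, 21 of 24 against egg and 24 of 26 against protruding-mouth larvae did not pass. Against egg, with 32-cell library 2 kept, the limma adjusted p was 0.0723 on the logit scale and 0.0886 with 2 flanking positions. It was 0.107 with trend and robust moderation and 0.147 with centred libraries.

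The read ends at a site are 5′ ends of one fragment and 3′ ends of another. Over all 18S positions 49.83% to 49.97% of the read ends were 5′ ends in each of the 12 libraries from egg to protruding-mouth larvae. At 18S-Am1678 they were 69 of 1745 read ends (3.95%), and 0 to 22.2% by library. In 32-cell library 2 they were 0 of 333, which allows a share of up to 0.901%. Of the 14 sites, 10 had under 50% and 6 under 20%, against 70 (71.4%) and 40 (40.8%) of all 98 sites. Among them were 18S-Am1383 with 6.95% and 18S-Gm1328 with 10.4%, while 18S-Am668 had 76.3% and 18S-Cm1272 65.1%. The 10 sites under 50% were those of the 3′ domain other than 18S-Cm1272, and their share of the set was close to that over all listed sites. These shares are of the 12 libraries together. By library the share at 18S-Am1637 ran from 2.13% in 12-somite library 2 to 51.7% in protruding-mouth library 1.

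With 5′ ends alone, which the adult columns used here do not give, the median over the 12 libraries was higher at 13 of the 14 sites (83 of all 98 sites, 84.7%), and the spread within stages was smaller at 10 of the 14 (63 of all 98 sites, 64.3%). 18S-Cm1703 then ran from 0.986 to 1 in place of 0.835 to 0.991, and 18S-Am1678 from 0.913 to 1 in place of 0.591 to 0.940. The stage means of 18S-Am1678 in these scores were 0.965 ± 0.0155 (SD, n = 3) in egg, 0.965 ± 0.0304 (n = 3) in 32-cell embryos, 0.971 ± 0.0502 (n = 3) in 12-somite embryos and 0.962 ± 0.0259 (n = 3) in protruding-mouth larvae. 18S-Am1637 had means of 0.885 ± 0.0360 (n = 3) in egg and 0.902 ± 0.0264 (n = 3) in 32-cell embryos. They were higher in 12-somite embryos, 0.962 ± 0.0348 (n = 3), and protruding-mouth larvae, 0.946 ± 0.0137 (n = 3). Neither the rise from 32-cell to 12-somite embryos nor the F test over the 4 stages passed (limma adjusted p 0.611 and 0.219). In 12-somite libraries 2 and 3 only 2 and 3 of the read ends at 18S-Am1637 were 5′ ends. 18S-Cm1272 was the exception in level, with 0 to 0.631 and a median of 0.392 in place of 0.515. Of the adult columns, only the counts of 5′ and 3′ ends together were used. Whether the adult scores of 18S-Am1637 and 18S-Am1678 rest on 3′ ends was therefore not tested.

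**Figure D4:**
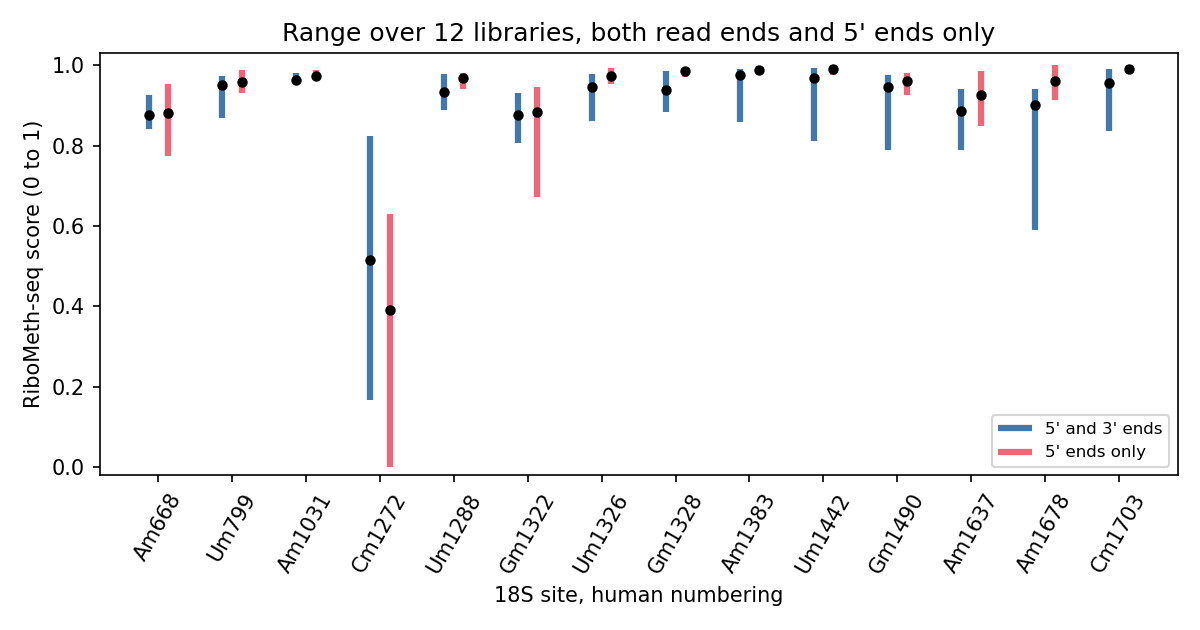
Range (bars) and median (black points) of the RiboMeth-seq score (vertical axis, 0 to 1) over the 12 libraries from egg to protruding-mouth larvae, from 5′ and 3′ ends together (blue) and from 5′ ends only (red), at each site (horizontal axis, human numbering). The red bars are short and close to 1 at 18S-Um1326 to 18S-Cm1703 apart from 18S-Gm1490, 18S-Am1637 and 18S-Am1678, and lie lower at 18S-Cm1272.

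To set these levels against the rest of the same stretch, the score was computed at the 1187 positions, from early position 714 to the 3′ end, that are not listed and pair between early and late rRNA. Their mean score over libraries had a median of 0.155 and a 90th percentile of 0.405. All libraries of 1 or more stages reached 0.75 at 7 of them, those of 2 or more stages at 2, and all 14 libraries at 0. With 5′ ends only, in 4 stages, the count of 1 or more stages was 63, against 6 with both ends in the same stages. The listed sites come from the authors' overview of the same data, so a gap between listed and unlisted positions is no independent check. The highest mean of an unlisted position was 0.813, under the second lowest mean of a listed site, 0.829 at 18S-Am1678, while 27 unlisted positions had a higher mean than 18S-Cm1272, at 0.540.

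That position is a uridine at early position 1315 and late position 1270, 24 positions before 18S-Cm1272, whose offset would give it the human number 1248. The uridine at this place in human 18S RNA is known to be a hypermodified pseudouridine, changed on its base rather than on the ribose. It scored 0.706, 0.902 and 0.746 in egg, 0.836, 0.760 and 0.923 in 32-cell embryos, 0.914, 0.801 and 0.902 in 12-somite embryos, 0.855, 0.834 and 0.861 in protruding-mouth larvae and 0.611 and 0.728 in adult tail. Both adult libraries lay under all libraries of 32-cell, 12-somite and protruding-mouth stages, and 10 of the 14 libraries reached 0.75. The position was picked for scores of at least 0.75 in whole stages, which favours such a gap. It is also the 1 position at which the late 18S sequences of the protruding-mouth and adult sheets differ: the protruding-mouth sheet has a cytidine there. With 5′ ends only, its score ran from 0.429 to 0.949 over 12 libraries.
Early sheets: uuaauuugacUcaacacgggg
Protruding-mouth sheet: uuaauuugacCcaacacggga
Adult sheet: uuaauuugacUcaacacggga

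The other position, an adenosine at early position 1284 and late position 1239, averaged 0.667. It scored 0.473, 0.534 and 0.452 in egg, 0.804, 0.840 and 0.773 in 32-cell embryos, 0.772, 0.878 and 0.857 in 12-somite embryos, 0.384, 0.814 and 0.581 in protruding-mouth larvae and 0.591 and 0.584 in adult tail. The 32-cell and 12-somite libraries lay above those of egg and adult tail without overlap, and those of protruding-mouth larvae spanned both ranges. Neither position is among the sites tested, and no test was run on them. Both were picked because every library of 2 or more stages reached 0.75. High scores in those stages, and gaps to other stages, therefore follow in part from the choice.
Early position 1284: gaagggcaccAccaggagugg

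**Figure D5:**
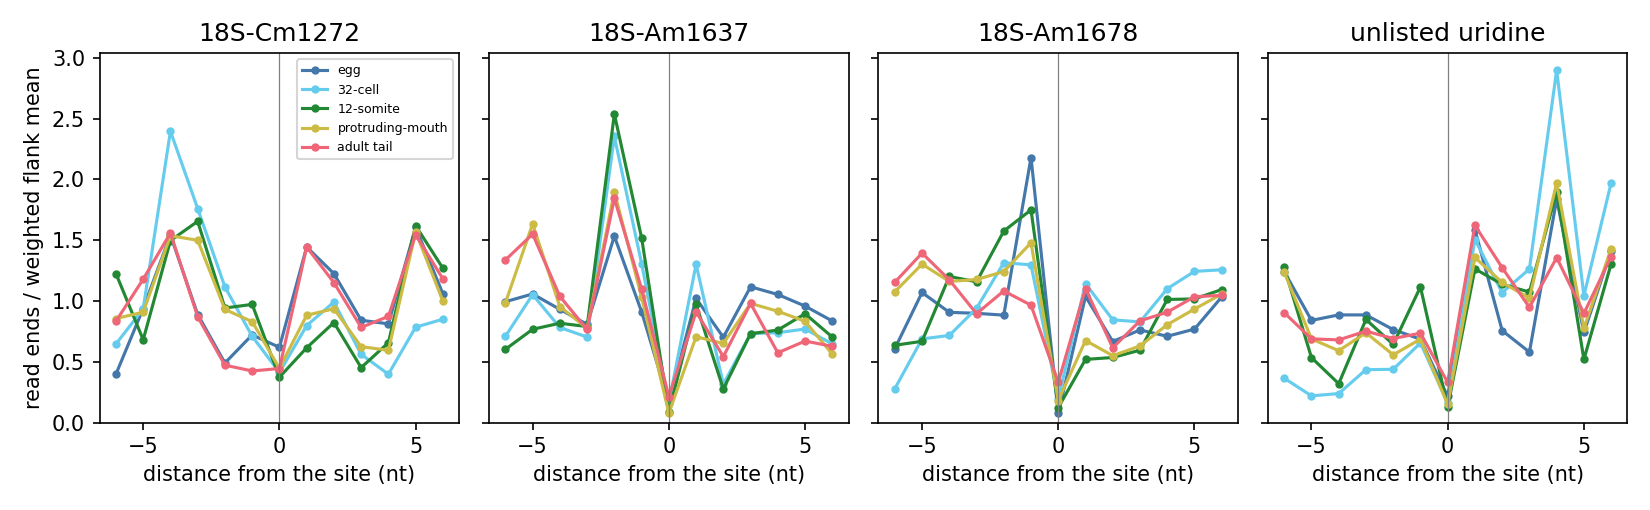
Read ends at each position over the weighted mean of the flanking positions (vertical axis) against the distance from the site in nucleotides (horizontal axis), averaged over the libraries of each stage, at 18S-Cm1272, 18S-Am1637, 18S-Am1678 and the unlisted uridine. At 18S-Am1637, 18S-Am1678 and the uridine each curve is lowest at distance 0; at 18S-Cm1272, with a mean score of 0.540 over the 14 libraries, the curves of egg, 32-cell embryos and adult tail are lower at another position.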

How the data were processed

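Per the labels' protocols, alkali-broken RNA of 20 to 40 nt was ligated by a modified plant tRNA ligase and sequenced on an Ion Proton. The submitters' processing notes name cutadapt 2.0 and Bowtie2 2.3.4.1. Per the file headers, the deposited stage sheets give a raw count of read ends at each rRNA position and a RiboMeth-seq value per library, a fraction from 0 to 1, and the deposited overview gives it as a score, as the stage mean and SD of the authors, some corrected for a barcode effect. Positions are those of the early and late rRNA of these sheets; a genome build is not given in the sources used here.

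Scores computed from the counts differed from the deposited fractions at listed sites by at most 4.97e-13. The adult library numbers do not match the sample titles, so that 2 count columns, called A and B, were used for that stage, and 46 further per-library columns were left out. The 4 small-RNA samples were not analysed here. Comparisons used limma 3.58.1 in R 4.3.3 on untransformed scores, two-sided. The fit was also run on simulated independent normal scores. These have no bounds and no shared barcodes, so that run cannot show how the fit handles either. Alternatives changed the scale, flanks, coverage minimum (50 or none), moderation, centring, read ends, barcode handling, stages fitted and libraries. At the listed sites, flanks were cut to 2 positions on each side with equal weights, or had listed positions left out. Early and late 18S RNA were aligned with Biopython 1.88. All sites are named; those past the threshold, with a stage mean under 0.75 or stage means at least 0.1 apart, and the 3 with the smallest range, are given by library. The sites, lists and limits were chosen with earlier results of these data known.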

Additional observations from a re-analysis of the deposited data

Results flagged for a closer look

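At 2 positions outside the authors' list, read ends were depleted in several stages. They were picked for reaching 0.75 in every library of 2 or more stages, so this pattern follows in part from the choice. The uridine at early position 1315 and late position 1270 had a mean score of 0.813 over 14 libraries, with at least 0.75 in every library of 32-cell embryos, 12-somite embryos and protruding-mouth larvae. The adenosine at early position 1284 and late position 1239 had a mean score of 0.667, with at least 0.75 in every library of 32-cell and 12-somite embryos. The median over the unlisted positions of the stretch was 0.155. The series has no unmethylated control RNA, and the nature of these positions was not tested. Stages with 2 or 3 libraries are too small for a check of single outlying libraries.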

How the results depend on the processing

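The count of sites with at least 0.75 in every library, 12, ran from 10 to 12 over its alternatives. Between adult tail and protruding-mouth larvae the count of 1, 18S-Am1637, became 0 on the logit scale, with 2 flanking positions, with trend and robust moderation, with centred libraries, with the 2 stages alone, with the quasi-binomial model and with barcode as a block in 3 stages alone. It became 2 with barcode-corrected scores, and leaving out single libraries gave 0 to 2. The cause of these changes was not tested. The additional site was 18S-Am1678, which with barcode-corrected scores also made the count 1 instead of 0 between adult tail and egg and in the F test over all 5 stages. With adult tail and egg fitted alone that count was also 1, and leaving out single libraries gave 0 to 1 for both. In the other comparisons the count was 0 in every alternative run. The falls in adult tail, at 18S-Am1637 against protruding-mouth larvae and at 18S-Am1678 against egg and against protruding-mouth larvae, kept their direction in each alternative; differences between earlier stages at these sites did not all do so (18S-Am1678 from 32-cell to 12-somite embryos: 0.0729, and -0.0635 with barcode-corrected scores). The count of 7 unlisted positions was 2 with a limit of 0.8, 3 with 2 flanking positions and 63 with 5′ ends only, in 4 stages (6 with both ends in these).

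The replicate block, fitted on the 4 stages whose libraries carry numbers, called 0 of the 14 sites in each comparison. Deviations from the stage mean at each listed site were correlated between same-numbered libraries. These correlations were 0.199 to 0.588 among 32-cell, 12-somite and protruding-mouth stages and -0.5745 to -0.00416 with egg. Correlations between libraries of different number were not computed, so these values cannot show whether the numbers pair the stages. Same-numbered libraries of 12-somite and protruding-mouth stages, at 0.450 to 0.588, also share a barcode, so that number and barcode cannot be told apart there. No barcode block was possible between adult tail and egg or between 12-somite and 32-cell embryos, which share none. Flanks without listed sites, barcode as a block in 3 stages alone and the alternatives for unlisted positions were added after seeing the data. With 2 or 3 libraries in a stage, and 1 of the adult libraries shallow, differences of the size of the spread at 18S-Cm1272 could not be resolved.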
